A study of Mus musculus with 4 samples.

Results

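Cxxc5 encodes a CXXC-type zinc finger protein that binds Dishevelled and dampens Wnt signalling. It was examined here with every WT1 peak whose midpoint lay in the gene or within 150 kb of it. This is 1 of the 21887 protein-coding genes of the reference table. Its interval held 25 of the 17234 regions found in both WT1 samples, 35 of the 53132 peaks of WT1 replicate 1 and 58 of the 57641 peaks of WT1 replicate 2. The gene was chosen by its WT1 peaks, from the IDRs and significance values described below, so their number and values are given as a description, with no test.

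The data are chromatin immunoprecipitation followed by sequencing (ChIP-seq) of kidneys microdissected from wild-type mouse embryos at embryonic stage E18.5. All samples share a mixed background, C57Bl6 crossed with B6DBA/F1, and no mutant or treated animals were included. There were 2 samples precipitated with a WT1 antibody (C-19) and 2 with IgG as the negative control, from separate experiments. Only the WT1 samples were analysed here, so no peak is set against its IgG level, and the number of embryos per sample was not given in the sources used here. A whole kidney at this stage mixes nephron progenitors, podocytes, tubules, stroma and vessels, so a peak cannot be assigned to a cell type. The files hold peaks and no expression. Reproducible WT1 regions, defined below, lay in or within 10 kb of the podocyte marker genes Nphs1, Synpo and Wt1, but not of Podxl, and of 2 of 5 nephron progenitor markers (Osr1 and Pax2). They also lay at Rbfox3, a neuronal gene, and not at Alb, a liver gene. Of all protein-coding genes 13.6% had one.

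In canonical Wnt signalling, a Wnt ligand brings Frizzled and an LRP coreceptor together, Dishevelled is recruited, and the complex that destroys beta-catenin is held back, so that beta-catenin can act with TCF and LEF factors on target genes. In the kidney this pathway drives the conversion of progenitors into epithelium, and persistent beta-catenin activity harms podocytes. WT1 is a zinc finger transcription factor needed in both cell types. CXXC5 has been described in other work as a WT1-induced inhibitor of Dishevelled.

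A region found in both samples is called an overlap region. Each carries an irreproducible discovery rate (IDR), read here as the authors' estimate of the share of unrepeatable regions among those ranked as high or higher. A region is called reproducible where its IDR is at most 0.05. Each peak of a single replicate carries the authors' significance value, a p-value or q-value of at most 0.05. All 17234 overlap regions began and ended at the outermost edges of the peaks they joined. The files give no read counts, so how many reads a peak rests on is unknown.

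Cxxc5 spans 32.3 kb (chromosome 18, 35829379 to 35861693, mm10), and the interval around it 332 kb. The overlap regions were not spread evenly over it. There were 3 on the lower-coordinate side of the gene, 6 inside it and 16 beyond its higher-coordinate end. Of the 25, 12 were reproducible, 2 of them inside the gene and 10 beyond its higher-coordinate end. No reproducible region lay on the lower-coordinate side. The reference table gives no strand, so the sides are named by coordinate.

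The stretches next to the peaks were empty of overlap regions. On the lower side the first 134 kb of the interval held none, and on the higher side the last 74.6 kb held none. The outermost overlap regions inside the interval were 15.8 kb below and 75.2 kb above the gene. The next ones lay 165 kb below (IDR 0.351) and 266 kb above (IDR 0.49), so the edges of the interval cut through no group of overlap regions. The closest reproducible regions outside the interval were 299 kb below and 322 kb above. On the scale of IDR, the weakest reproducible region in the interval had 0.0361 and the strongest of the 13 others 0.0724.

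**Figure D1:**
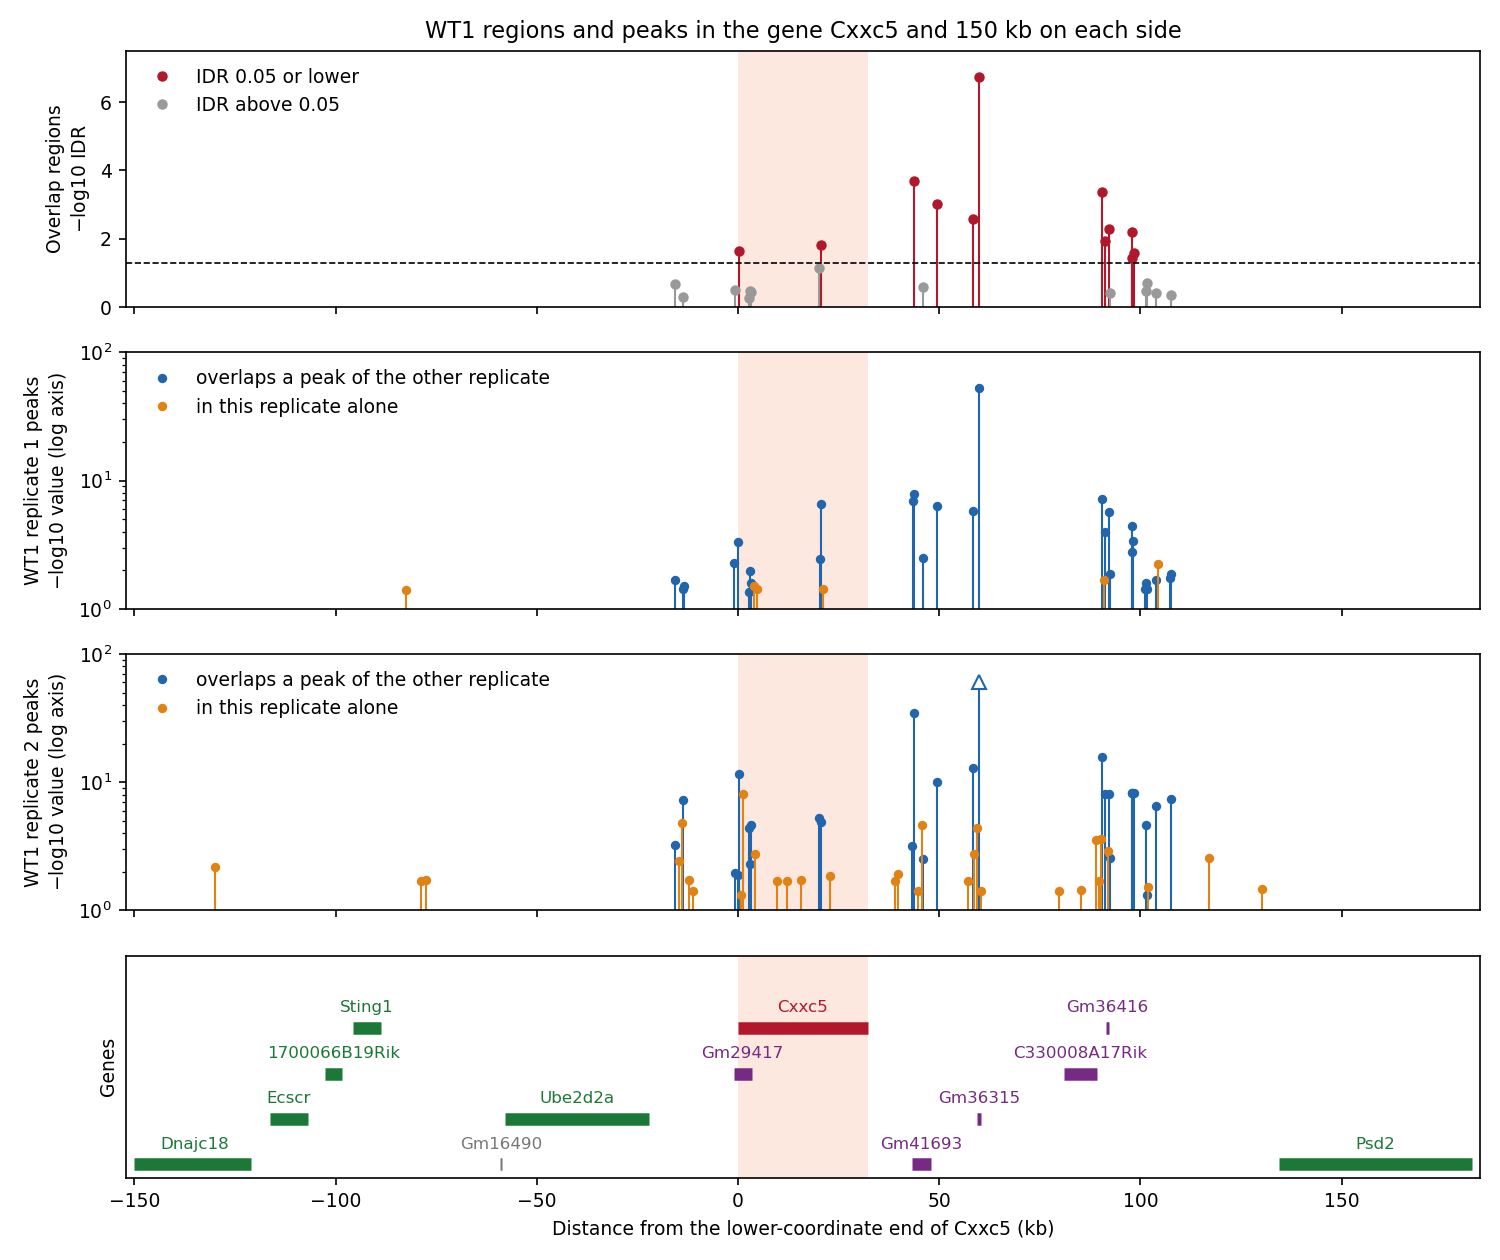
WT1 regions and peaks by distance from the lower-coordinate end of Cxxc5 in kb (shaded, the gene). The upper panel plots the overlap regions as −log10 IDR with a dashed line at an IDR of 0.05, the next panels plot each replicate's peaks as −log10 of the significance value on a log axis (open triangle, a value of 0), and the lowest panel shows the genes, cut at the interval's edges. The tallest points in all 3 peak panels stand beyond the gene, and 10 of the 12 reproducible regions lie to its right.

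Neighbouring overlap regions were a median of 2.28 kb apart, from 0.186 to 30.5 kb. Joined where their midpoints followed within 10 kb, they made 5 groups. A pair with no reproducible member lay between Ube2d2a, which encodes a ubiquitin-conjugating enzyme, and Cxxc5. A group of 5 lay at the lower-coordinate end of Cxxc5, a pair lay inside the gene, a group of 5 began 11.3 kb beyond its higher-coordinate end, and a group of 11 lay farther out.

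At the lower-coordinate end of the gene, 1 of the 5 regions was reproducible. It spans 35829287 to 35829842, so it covers the annotated gene end itself, with its midpoint 185 bp inside. Its IDR was 0.022. Replicate 1 had 1 peak there with a significance value of 0.000506 and replicate 2 had 2, the better at 2.2e-12. The other 4, at 35828347 to 35828745, 35831999 to 35832128, 35832190 to 35832309 and 35832512 to 35832709, had IDRs from 0.308 to 0.55. All 5 touch Gm29417, a long non-coding RNA (lncRNA) gene across this end of Cxxc5 (35828261 to 35832761). The one at 35828347 to 35828745 touches Gm29417 alone, and the other 4 touch both genes. Replicate 2 had a further peak at 35830456 to 35830765 with a value of 8.35e-09, which ranks 3628 of its 57641 peaks. No peak of replicate 1 overlapped it.

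Deeper in the gene there were 2 adjoining regions, 0.477 kb apart by their midpoints. The one at 35849871 to 35850276, 11.6 kb from the higher-coordinate end, had an IDR of 0.0155, the lower of the 2 reproducible IDRs inside Cxxc5. Its significance values were 2.41e-07 in replicate 1 and 1.27e-05 in replicate 2. It was the only reproducible region of the interval with the lower value in replicate 1. The other, at 35849363 to 35849830, missed the threshold with an IDR of 0.0724, at values of 0.00347 and 5.12e-06. The exons of Cxxc5 were not used here, so these sites are not placed in an exon or intron.

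The group of 5 beyond the higher-coordinate end of the gene held 4 reproducible regions, each with a lower IDR than those inside Cxxc5. At 11.3 kb lay a region of 840 bp, the widest of the interval (35872577 to 35873416, IDR 0.000207). Replicates 1 and 2 had 2 peaks each in it, the better ones at 1.55e-08 and 1.74e-35. At 17.2 kb lay one at 35878783 to 35879037 (IDR 0.00095), with values of 4.11e-07 and 7.59e-11. At 26.1 kb lay another at 35887606 to 35887940 (IDR 0.00268), with values of 1.44e-06 and 1.23e-13. In these last 2 regions the replicates' peaks had the same first and last base.

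The strongest site of the interval came next, 27.6 kb beyond the gene. It spans 35888977 to 35889663 and had an IDR of 1.82e-07, rank 29 of all 17234 overlap regions. Its value was 2.71e-53 in replicate 1, rank 50 of 53132. In replicate 2 it is listed at 0, a value that 45 peaks of that list share. It was therefore near the top of both lists, with an IDR far below that of either reproducible region inside Cxxc5 (0.022 and 0.0155). Within this group of 5, only the region at 35875256 to 35875403 was not reproducible (IDR 0.26).

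The farthest group held 11 regions between 35919702 and 35937107, of which 6 were reproducible. Those at 58.1, 59.0 and 59.8 kb from Cxxc5 had IDRs of 0.000416, 0.0112 and 0.0053. Those at 65.5, 65.7 and 66.0 kb had IDRs of 0.0361, 0.00648 and 0.0253 and lay within 1 kb of each other. Their values ran from 6.56e-08 to 0.00176 in replicate 1 and from 2.33e-16 to 7.94e-09 in replicate 2. This group is nearer to Psd2, which encodes an exchange factor for Arf GTPases (35963872 to 36014715), than to Cxxc5: its reproducible members lay 36.2 to 44.0 kb from Psd2. By distance alone, Cxxc5 was thus the nearest protein-coding gene for 6 of the 12 reproducible regions and Psd2 for the other 6. The files do not connect a region with the gene it acts on.

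The interval also meets Dnajc18, Ecscr, 1700066B19Rik, Sting1 and the pseudogene Gm16490 on the lower side. Dnajc18 belongs to the DnaJ co-chaperones, Ecscr encodes an endothelial surface protein and Sting1 encodes an innate immune adaptor. None of these 5 genes, nor Ube2d2a or Psd2, contained an overlap region. Of the 7 reproducible regions with an IDR of 0.01 or lower, none lay in a protein-coding gene.

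Several of the regions sat on lncRNA genes. The interval has 5 annotated: Gm29417, Gm41693, Gm36315, C330008A17Rik and Gm36416. Reproducible regions touched 4 of them, all but C330008A17Rik, where 4.41% of the 12727 lncRNA genes of the table were touched. The strongest region of the interval lay within the 1.1 kb of Gm36315 (35888769 to 35889868). The 840 bp region covered the lower-coordinate end of Gm41693 (35872611 to 35877311). In the 0.872 kb of Gm36416 (35920778 to 35921649), 1 reproducible region lay inside and 1 crossed the lower-coordinate end. In all, 6 of the 12 reproducible regions touched no annotated gene. The lncRNA genes were looked at after the peaks were seen, so the share describes this locus only.

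The replicates shared more of their peaks here than over the whole lists. In replicate 1, 29 of 35 peaks of the interval overlapped a peak of replicate 2 (82.9%, exact Clopper-Pearson 95% interval 66.4 to 93.4), against 34.1% of all its peaks (33.7 to 34.5). In replicate 2 it was 27 of 58 (46.6%, 33.3 to 60.1), against 30.8% (30.4 to 31.1). These intervals cover counting error over peaks only, and a gene chosen for its shared regions has a high share by that choice.

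The 6 unshared peaks of replicate 1 were weak, with values from 0.00582 to 0.0401. The 31 unshared peaks of replicate 2 ran from 8.35e-09 to 0.0469, with a median of 0.0193, and 4 of them were below 1e-04. The peak at 8.35e-09 is the one inside Cxxc5 described above.

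Replicate 2 gave the lower significance value in 22 of the 25 overlap regions, and in 11 of the 12 reproducible ones. Its values were lower over the whole list too, with a median of 0.0125 against 0.0261. By rank within each list, replicate 2 was ahead in 17 of the 25 and in 8 of the 12. Peaks of both replicates began at the same base in 10 of the 25 regions and ended at the same base in 7. The DNA was cut with restriction enzymes before sequencing, and the part of this in the shared edges was not tested.

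**Figure D2:**
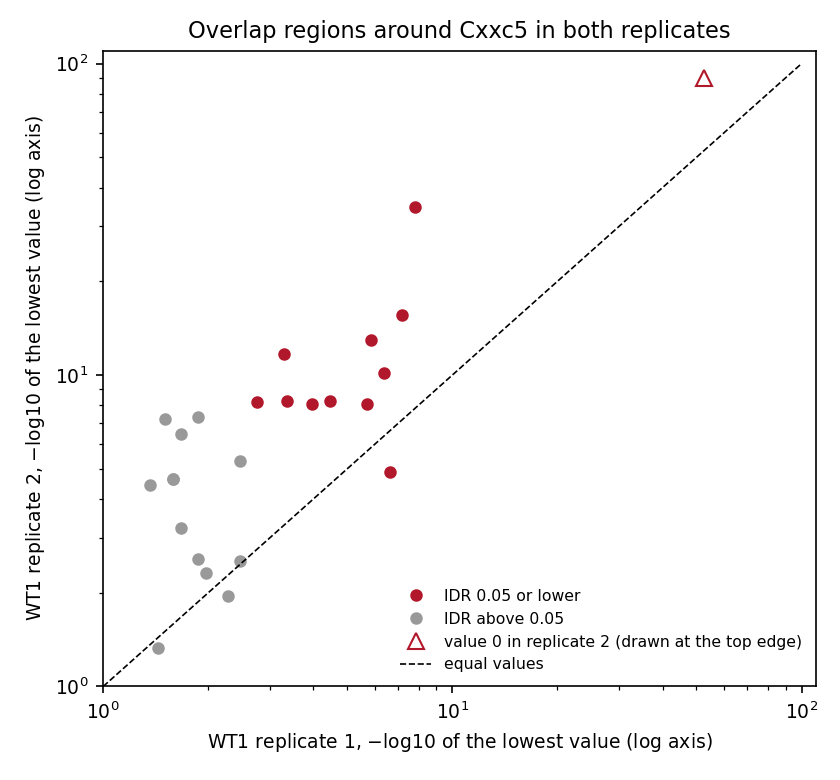
The 25 overlap regions around Cxxc5, each by the lowest significance value of its peaks in WT1 replicate 1 (x) and WT1 replicate 2 (y), as −log10 on log axes, with a dashed line of equal values. Of the 25 points 22 lie above the line, and the open triangle at the top is the region listed at 0 in replicate 2.

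Among protein-coding genes the number of regions around Cxxc5 was high, which its choice by these peaks favours. With 12 reproducible regions in or within 150 kb, it was 1 of 6 genes (0.0274% of 21887) with at least as many, where the median gene had 0, the 90th percentile was 3, and 47.0% had at least 1. The others were Hes1 with 15, Maml3 with 13, and Zbtb7c, Ube2d2a and Psd2 with 12 each. Ube2d2a and Psd2 share their regions with Cxxc5, so the 6 genes make 4 separate stretches of the genome. Counting for each gene only the regions nearest to it, Cxxc5 had 6, and 24 genes (0.11%), itself included, had at least as many. Counted per Mb of interval, only 2 genes, Cxxc5 included, had as many.

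The window of 10 kb lies within that of 150 kb, so its counts can only be equal or lower. In the gene or within 10 kb there were 2 reproducible regions. At least as many were found at 721 genes (3.29%), Cxxc5 included. Overlap regions of any IDR within 10 kb numbered 7. At least as many were found at 194 genes (0.886%), Cxxc5 included, and 33.6% of genes had at least 1. At an IDR of 0.01 none remained within 10 kb of Cxxc5, and the nearest was the one at 11.3 kb. For overlap regions of any IDR the 25 within 150 kb were reached by 10 genes (0.0457%), Cxxc5 included, against a median of 2.

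**Figure D3:**
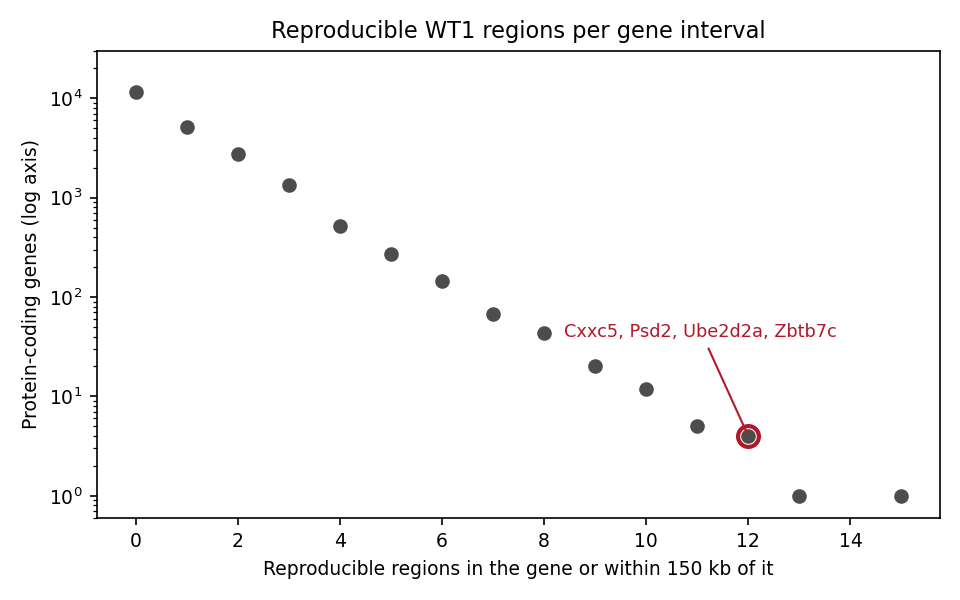
Number of protein-coding genes (y, log axis) by the number of reproducible WT1 regions in the gene or within 150 kb of it (x). Cxxc5 is in the circled point at 12 regions, with Psd2, Ube2d2a and Zbtb7c, and only Maml3 at 13 and Hes1 at 15 lie to the right.

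The size of the groups is likewise a description, since Cxxc5 was chosen by its WT1 peaks. The reproducible regions of the genome, joined within 10 kb, made 3867 groups, of which 88.0% were single regions. The group of 6 between 58.1 and 66.0 kb beyond Cxxc5 was as large as any, and 2 groups in all reached 6. All members of this group were nearer to Psd2 than to Cxxc5. The members at 65.5, 65.7 and 66.0 kb nearly adjoin, at 35927078 to 35927308, 35927314 to 35927489 and 35927562 to 35927839. Regions this close are counted separately in all numbers here, and whether they are separate binding sites was not tested. Joined within 5 kb, a distance tried after the groups were seen, the largest near Cxxc5 held 3, and 41 groups in the genome had at least as many.

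Each of the other listed inhibitors of Wnt signalling had fewer reproducible regions than Cxxc5 within 150 kb. Cxxc5 was chosen by its peaks in this window, so this place is a description only. Psd2 was the nearest protein-coding gene for 6 of its 12 regions. Within 10 kb, 40 of the other 44 inhibitors had fewer than the 2 of Cxxc5, Kremen2 and Gsk3b had 2, and Sost and Trabd2b had more. Of a list of 45 inhibitors including Cxxc5, 11 (24.4%) had a reproducible region in the gene or within 10 kb, beside 13.6% of all protein-coding genes. The exact Clopper-Pearson 95% interval of this share was 12.9 to 39.5, and 13.6% lies inside it. Without Cxxc5 the share was 10 of 44 (22.7%). At an IDR of 0.01 it was 5 of 45 (11.1%), without Cxxc5 among them, beside 9.71% of all protein-coding genes. Within 150 kb it was 29 of 45 (64.4%) beside 47.0% of all genes, and no inhibitor other than Cxxc5 had more than 8.

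Among secreted and surface inhibitors, Sost, which encodes the LRP antagonist sclerostin, had 5 within 10 kb. The strongest covered the higher-coordinate end of Sost, with its midpoint 246 bp outside (chromosome 11, 101967008 to 101967515, IDR 9.12e-07). This region was also within 10 kb of Dusp3. Kremen1 and Kremen2, the DKK coreceptors, had 1 and 2. The strongest at Kremen2 also lay within 10 kb of Pkmyt1, Paqr4 and Flywch1. Apcdd1, a membrane inhibitor, had 1, and Trabd2b, a Wnt-cleaving protease, had 3.

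Inside the cell, Nkd1 and Cxxc4, which like CXXC5 bind Dishevelled, had 1 each. Of the destruction complex, Axin2 had 1 at an IDR of 5.14e-05, Gsk3b had 2 and the casein kinase gene Csnk1a1 had 1. Apc, Apc2, Axin1 and Gsk3a had no overlap region within 10 kb, and Amer1 had 1 that was not reproducible. The lowest IDR of Cxxc5 was 0.0155 within 10 kb and 1.82e-07 within 150 kb. The wider window contains the narrower one, so its lowest IDR can only be equal or lower. The lowest IDR was the same in both at Sost, Kremen1, Apcdd1, Nkd1, Axin2 and Cxxc4. At several other inhibitors it was lower in the wider window. It was 0.000215 and 8.69e-07 at Trabd2b, 4.6e-05 and 3.96e-06 at Csnk1a1, 0.0101 and 0.00104 at Gsk3b, and 0.0132 and 0.00111 at Kremen2. Apc2 had no reproducible region within 10 kb and one at 1.37e-07 within 150 kb.

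Of 35 ligand, receptor and transducer genes, 11 (31.4%) had a reproducible region within 10 kb, beside 13.6% of all protein-coding genes. The exact Clopper-Pearson 95% interval of this share was 16.9 to 49.3, and 13.6% lies below it. No test was run, and the list was chosen with earlier results of these data known. At an IDR of 0.01 the share was 6 of 35 (17.1%) beside 9.71%. For Dishevelled, the protein CXXC5 binds, Dvl2 had 1 (IDR 5.86e-05), 8.21 kb outside it and also within 10 kb of Acadvl and Dlg4, and Dvl1 and Dvl3 had none. The ligand genes were Wnt7b and Wnt11, with Rspo1 as the agonist, and the coreceptor genes Lrp5 and Lrp6. Nuclear members were Ctnnb1, which encodes beta-catenin, Tcf7l2, and the coactivators Bcl9, Bcl9l and Pygo2. Their numbers ran from 1 to 3, with 3 at Bcl9. The region at Lrp6 also lay within 10 kb of Bcl2l14, and that at Pygo2 within 10 kb of Shc1 and Pbxip1.

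Proteins with a CXXC zinc finger bind CpG-rich DNA and include subunits of chromatin-modifying enzymes. Of 12 such genes, 3 had a reproducible region within 10 kb: Cxxc5, its paralogue Cxxc4 and Tet3, which encodes a methylcytosine dioxygenase. That is 25.0% (exact Clopper-Pearson 95% interval 5.49 to 57.2), or 2 of 11 (18.2%) without Cxxc5, beside 13.6% of all protein-coding genes, which lies inside the interval. Cxxc4 had 1 inside the gene, 4.43 kb from the nearer end (chromosome 3, 134240218 to 134240937, IDR 1.07e-06), and no other within 150 kb. So by IDR the loci of the paralogues differed in arrangement. Cxxc4 had a single region with a low IDR inside it. Cxxc5 had regions with higher IDRs inside it, and the lowest IDRs of its interval lay outside it. Whether those outside regions act on Cxxc5 was not tested.

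Among the 90 genes of these lists, those nearest to Cxxc5 in their number of reproducible regions within 150 kb, and then in log10 of the lowest IDR there, were Sost with 8, Csnk1a1 and Bcl9 with 7, and Apc2 and Trabd2b with 6. Their lowest IDRs differed from that of Cxxc5 by 0.7, 1.34, 1.4, 0.12 and 0.68 on the log10 scale. Apc2 had none of its 6 within 10 kb.

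**Figure D4:**
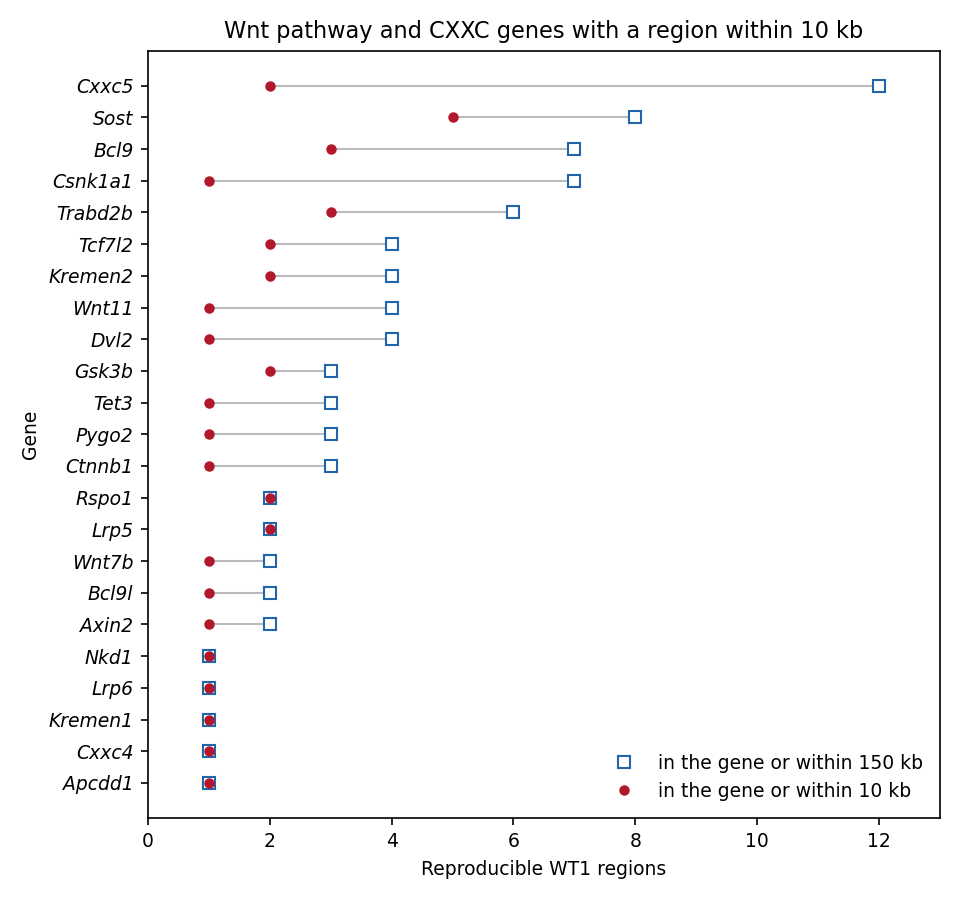
Reproducible WT1 regions in the gene or within 10 kb (filled points) and within 150 kb (open squares) for the genes of the 3 lists with at least 1 within 10 kb. Cxxc5 has 12 within 150 kb and 2 within 10 kb, and Sost, next in the wider window with 8, has 5 within 10 kb.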

How the data were processed

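Per the labels' protocols, the DNA was digested with MseI and either AluI or HaeIII, and libraries had 18 rounds of PCR. Positions are on mm10, the build named in the submitters' processing notes. Aligner, peak caller and any use of IgG reads were not given in the sources used here. For each peak the authors deposited 1 significance value of at most 0.05, a p-value or a q-value, and for regions of both replicates a fraction between 5.19e-08 and 0.555. It is read here as a global IDR, since its product with the rank grew by steps that never shrank beyond 1e-07.

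Peaks were placed by midpoint, with 1-based positions, and called shared at 1 bp of overlap. Gene spans came from RefSeq GRCm38.p6, the assembly behind mm10, without strand or exons. All 90 listed symbols matched. Analyses used Python 3.11.15, pandas 2.3.3 and scipy 1.17.1, and the functions were tested on simulated data. The gene and lists were chosen with earlier results of these data known. Genes named are Cxxc5, genes in its interval, list members with a reproducible region within 10 kb, and the 5 list genes most like Cxxc5. Other genes within 10 kb of a list member's strongest region are named beside it. Hes1, Maml3, Zbtb7c, Dvl1, Dvl3, Apc, Axin1, Gsk3a and Amer1 were named after their values were seen. Alternatives were other windows, IDR thresholds, overlap rules and each replicate alone. No sequence is shown, and some marker genes are not reported here.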

Additional observations from a re-analysis of the deposited data

How the results depend on the processing

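The counts around Cxxc5 depended on the window and the IDR threshold. With windows of 50 and 10 kb there were 14 and 7 overlap regions and 6 and 2 reproducible regions, in place of 25 and 12. At an IDR of 0.01 there were 7 reproducible regions, and the nearest lay 11.3 kb from the gene. Counting only regions nearest to Cxxc5 gave 6, and joining within 5 kb gave a largest group of 3 in place of 6; both were chosen after seeing the data. From the 4411 top peaks of 1 replicate alone there were 10 to 14. The share of genes with at least as many reproducible regions, 0.0274%, became 3.29% and 0.187% with windows of 10 and 50 kb, 0.224% at an IDR of 0.01, 0.00914% per Mb and 0.11% with nearest regions only.

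At an IDR of 0.01, 5 of 45 inhibitors (11.1%) and 6 of 35 other Wnt genes (17.1%) had a region within 10 kb, beside 9.71% of all genes. Within 150 kb it was 29 of 45 inhibitors (64.4%) and 22 of 35 other Wnt genes (62.9%), beside 47.0% of all genes. Of the CXXC genes it was 6 of 12. Within 10 kb, replicate 1 alone gave 11, 9 and 3 genes of the 3 lists (24.4%, 25.7% and 25.0%), beside 12.6% of all genes. Replicate 2 alone gave 14, 13 and 5 (31.1%, 37.1% and 41.7%), beside 13.6%, with the lists in the same order. In all, 21 of 40 alternatives stayed within 1.5 times a count, within the interval of a share, or at the same distance. Some of the alternatives are nested windows, whose counts can move in 1 direction only. The distance to the start of transcription was not run, since strand was not given. No paired analysis was possible because the IgG samples were not analysed here and no result comes from a test. The depth behind peaks is unknown.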
